A study of Mus musculus with 112 samples.

Results

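Lysine-specific demethylase 1 (LSD1, encoded by Kdm1a) removes methyl groups from histone H3 lysine 4 and is a core subunit of the CoREST complex, together with the histone deacetylases HDAC1 and HDAC2 and an RCOR scaffold protein. Catalytically inactive LSD1 (LSD1 CI) cells were mouse V6.5 embryonic stem cells (ESCs) whose own Kdm1a gene had been edited by CRISPR to carry the substitutions A539E and K661Q. Described here is the differentiation of these cells: 4 libraries of LSD1 CI day 6 embryoid bodies (EBs) set against 4 libraries of LSD1 CI naive ESCs, chosen by genotype and culture from the labels, 8 of the 112 samples of the series. The EBs came from naive ESCs kept for 6 days in hanging drops in serum medium. The naive ESCs were grown without serum in N2B27 medium with the MEK inhibitor PD0325901, the GSK inhibitor CHIR99021 and LIF. As a measure of how cells with intact LSD1 respond to the same step, 7 WT EB libraries and 8 of the 11 WT naive ESC libraries were used, all from unedited V6.5 cells in the same media. These WT libraries were not uniform in a property of their counts, given under the processing of the data. For named genes, values are also given for LSD1 CI cells in 2 other cultures, each with the solvent DMSO and 2 libraries: 4 days in serum medium without LIF or inhibitors, and 2 days towards epiblast-like cells (EpiLCs). The study worked with 2 independent clones of the edited line, and the labels do not say which library came from which clone, so the p-values measure the spread between these libraries only.

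Naive ESCs resemble the epiblast of the preimplantation embryo and rely on transcription factors such as OCT4 (Pou5f1), NANOG and ESRRB. When inhibitors and LIF are withdrawn and the cells aggregate, the naive network is shut down, the cells pass through a state like the postimplantation epiblast, and derivatives of mesoderm, endoderm and ectoderm appear side by side in the same EB. An EB is therefore a mixture, and in bulk RNA fewer cells of a type and less RNA per cell cannot be told apart.

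The 2 edited codons of Kdm1a (chromosome 4, 136106448 to 136158638, minus strand, mm9) are shown because they define the cells studied. They are given in the reference sequence, with 30 bases on each side and the codon in capitals, since the deposited counts hold no base calls. The positions in the names of the substitutions are 1 lower than in the mouse protein used here. In the mouse transcript used here, which encodes 853 residues, A539 is codon 540 in exon 13 of 19 and K661 is codon 662, the last codon of exon 15, so that the bases after it are intronic.
A539 codon, chr4:136113572-136113634: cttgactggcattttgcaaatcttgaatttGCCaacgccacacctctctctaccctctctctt
K661 codon, chr4:136110098-136110160: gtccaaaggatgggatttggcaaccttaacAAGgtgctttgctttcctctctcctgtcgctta

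Levels are given as CPM (a gene's counts divided by its library's total counts, times 1000000), with the totals scaled between libraries by the TMM method. A gene was called when its adjusted p in edgeR's quasi-likelihood test was below 0.01 and its log2 fold change was above 1 in either direction, and fold changes are printed as log2 values ± their standard error. Library totals were 30936226 to 34358497 counts in LSD1 CI EBs and 30940448 to 36333792 counts in LSD1 CI ESCs, and 32615341 to 44401097 counts in WT EBs and 17221431 to 40707331 counts in the WT ESCs used. The ribosomal precursor Rn45s took 9.49 to 16.6% of counts in LSD1 CI EBs and 17.6 to 18.7% in LSD1 CI ESCs. Libraries of the 2 groups differed by 1.35 to 1.54 (root mean square difference of log2(CPM + 1)). Within groups, LSD1 CI EB libraries 1 and 2 were closest, at 0.25, and EB library 4 stood farthest from the others, at 0.438 to 0.591. The LSD1 CI ESC libraries formed close pairs, 1 with 3 (0.21) and 2 with 4 (0.207), against 0.36 to 0.386 for all other ESC pairs.

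Kdm1a itself was at 141, 143, 129 and 132 CPM in LSD1 CI EBs, against 184, 185, 177 and 186 CPM in LSD1 CI ESCs. All EB libraries were lower, and the fold change of -0.43 ± 0.06 (adjusted p = 0.000179) was below the size required for a call. A point substitution leaves the gene's reads in place, so this level does not check the genotype labels. Of 13 tested members of the list of LSD1 partners, Phf21a and Gfi1 rose and the other 11 were not called. Phf21a, a reader of unmethylated H3 lysine 4, reached 68.9, 76.9, 85.3 and 108 CPM in LSD1 CI EBs, against 29.5 to 32.8 CPM in LSD1 CI ESCs (1.44 ± 0.14, adjusted p = 1.18e-05). The scaffold genes moved less: Rcor1 by 0.53 ± 0.11, Rcor2 by 0.10 ± 0.06 and Rcor3 by 0.54 ± 0.11, and Hdac1 had -0.69 ± 0.09.

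Differentiation changed a large part of the measured transcriptome. Of 15022 genes tested, 2997 were called up in LSD1 CI EBs (20%) and 2373 were called down (15.8%). These shares are the background against which each list is read, and the median fold change over all genes tested was 0.03. The libraries of the groups did not overlap for 2983 of the genes up and 2368 of the genes down. The calls rest on the same values, so this adds little to them, and its share over all genes was not computed. Among the genes up, 194 had no count in any LSD1 CI ESC library, and among the genes down, 82 had no count in any LSD1 CI EB library.

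The naive pluripotency network was lost almost as a whole. Of its 16 listed genes, 14 were called down, with a median of -6.00. Esrrb (chromosome 12, 87702067 to 87862578), an orphan nuclear receptor of naive ESCs, was at 6.14, 2.63, 2.28 and 0.214 CPM in LSD1 CI EBs, against 547, 481, 598 and 493 CPM in LSD1 CI ESCs, a fold change of -7.54 ± 0.63 (adjusted p = 5.15e-06). Every EB library lay far below every ESC library, and the fold change was -8.26 without EB library 1. Tfcp2l1, a partner of Esrrb in naive self-renewal, had 18.5, 17.3, 17.3 and 49.3 CPM in LSD1 CI EBs, against 1210 to 1330 CPM in LSD1 CI ESCs (-5.64 ± 0.39). Prdm14, which represses FGF signalling and DNA methylation in naive cells, had 0.306 to 0.556 CPM in LSD1 CI EBs, against 30.6 to 38.4 CPM in LSD1 CI ESCs (-6.23 ± 0.19). The orphan receptor gene Nr5a2 fell by a like amount and with little spread, at 0.988 to 1.63 CPM in LSD1 CI EBs, against 101 to 111 CPM in LSD1 CI ESCs (-6.22 ± 0.14). Members not called were Tbx3, at 124, 169, 273 and 224 CPM in LSD1 CI EBs against 127 to 156 CPM in LSD1 CI ESCs, and Gbx2 (-1.05 ± 0.57), which was called down at -1.78 without EB library 1.

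Genes shared by naive and primed pluripotency fell less evenly. Of 12 listed, 8 were called down, with a median of -3.97. Pou5f1, the gene of the core pluripotency factor OCT4, was at 22.7, 10.2, 7.47 and 2.9 CPM in LSD1 CI EBs, against 383, 386, 426 and 442 CPM in LSD1 CI ESCs (-5.24 ± 0.52, adjusted p = 1.6e-05). Nanog had 33.3, 22.9, 11.4 and 3.27 CPM in LSD1 CI EBs, against 564 to 688 CPM in LSD1 CI ESCs (-5.15 ± 0.59). Sox2 had 53.3, 23.9, 11.2 and 5.56 CPM in LSD1 CI EBs, against 287 to 365 CPM in LSD1 CI ESCs (-3.82 ± 0.59). In Pou5f1, Nanog and Sox2 EB library 1 was the highest and EB library 4 the lowest, and without EB library 1 the fold changes of Pou5f1 and Sox2 were -5.89 and -4.59. Sall4 and Trim28 were not called. Lin28a, an RNA-binding protein that blocks let-7 maturation and marks primed cells, was the single member called up: 708, 704, 655 and 699 CPM in LSD1 CI EBs, against 142, 73.6, 127 and 61.6 CPM in LSD1 CI ESCs (2.78 ± 0.25).

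**Figure D1:**
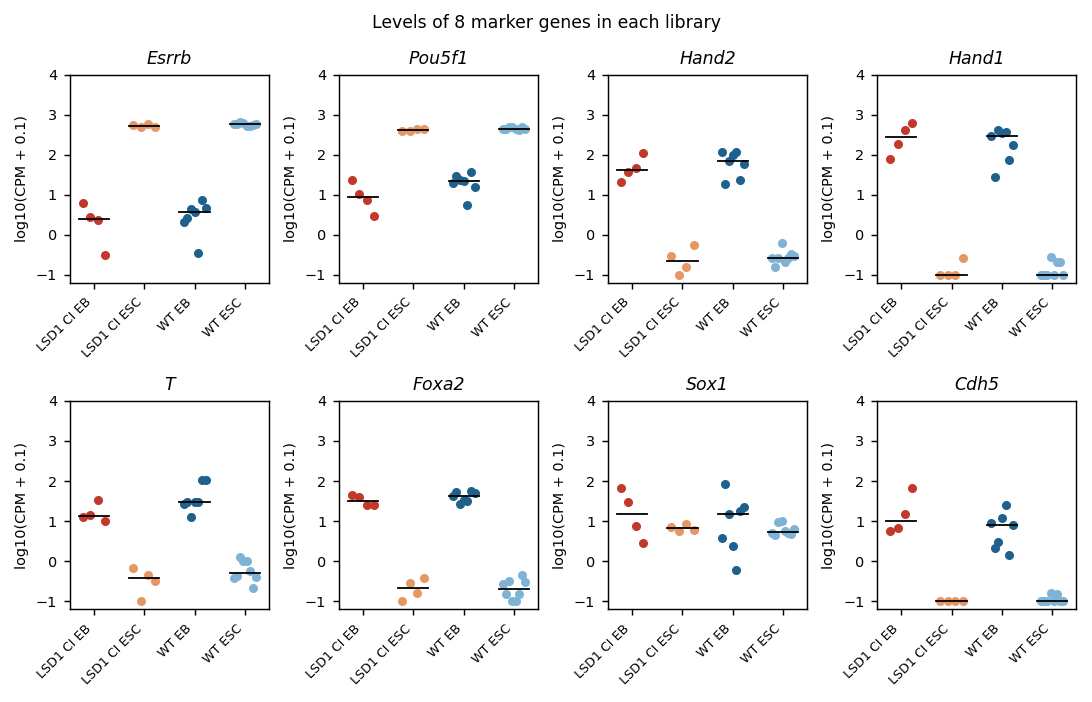
Levels of 8 marker genes, as log10(CPM + 0.1), in each library of LSD1 CI EBs (4), LSD1 CI ESCs (4), WT EBs (7) and WT ESCs (8). Each point is a library and each line a group median. Esrrb and Pou5f1 are low in every EB library of both genotypes, and Hand2, Hand1, T and Foxa2 are high in them. The EB libraries of both genotypes spread widely for Sox1, Cdh5 and Esrrb.

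Markers of the formative and primed epiblast were partly up: 5 of 10 were called up, and Foxd3 was called down. Fgf5, the classical epiblast ligand, had 72.7, 54.6, 36.3 and 7.18 CPM in LSD1 CI EBs, against 0 to 0.0597 CPM in LSD1 CI ESCs (10.30 ± 1.01). Dnmt3b, a de novo DNA methyltransferase, had 464, 441, 323 and 244 CPM in LSD1 CI EBs, against 96.7 to 113 CPM in LSD1 CI ESCs (1.81 ± 0.18). Both were highest in EB libraries 1 and 2. Otx2, a homeobox gene of the primed epiblast and forebrain, had 87.7, 60.1, 23.7 and 16.1 CPM in LSD1 CI EBs, against 6.53 to 19.5 CPM in LSD1 CI ESCs. Its groups overlapped and it was not called (1.94 ± 0.55, adjusted p = 0.0107), but it was called without EB library 3 (2.15) or without EB library 4 (2.23), and by DESeq2 with all libraries (1.93, adjusted p = 0.00405).

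The primitive streak and early mesoderm programme rose, with 12 of 14 tested genes called up and a median of 6.05. T (Brachyury), the T-box factor of the streak, had 12.2, 13.9, 33.7 and 9.87 CPM in LSD1 CI EBs, against 0 to 0.588 CPM in LSD1 CI ESCs (5.91 ± 0.70). Eomes, a T-box factor of streak mesoderm and endoderm, had 146, 127, 89.0 and 21.0 CPM in LSD1 CI EBs, against 10.2 to 18.5 CPM in LSD1 CI ESCs (2.67 ± 0.50). The LIM homeobox gene Lhx1 had 119, 92.2, 66.2 and 33.4 CPM in LSD1 CI EBs and no count in LSD1 CI ESCs, which puts it at least 3520-fold higher in EBs by the floor of 3 counts over the group. Since mates appear to have been counted singly, a floor of 3 fragments would lower this bound, and the later ones, by 2 times. Mesp1, the earliest marker of cardiovascular mesoderm, had 4.83, 5.66, 5.80 and 1.59 CPM in LSD1 CI EBs and 2 counts in all in LSD1 CI ESCs. Eomes, Lhx1 and Mesp1 were all lowest in EB library 4. Receptors of later mesoderm had the opposite order: Kdr, the VEGF receptor of blood and endothelial precursors, had 49.7, 69.1, 123 and 194 CPM in LSD1 CI EBs, against 0.866 to 1.68 CPM in LSD1 CI ESCs (6.59 ± 0.51).

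Genes of paraxial and lateral mesoderm rose as well. Of 15 paraxial and lateral mesoderm genes, 13 were called up, with a median of 5.65, and Tcf15 and Tbx18 were called down. Hand2 (chromosome 8, 59799780 to 59803314), a basic helix-loop-helix factor of heart and limb mesoderm, had 20.8, 38.0, 45.5 and 109 CPM in LSD1 CI EBs, against 0.196, 0, 0.0591 and 0.45 CPM in LSD1 CI ESCs (8.20 ± 0.79, adjusted p = 1.28e-05). The groups did not overlap, and the fold change was 9.28 without ESC library 4 and 7.57 without EB library 4. Its relative Hand1, of extraembryonic and lateral mesoderm, had 77.6, 180, 410 and 610 CPM in LSD1 CI EBs, against 0 to 0.169 CPM in LSD1 CI ESCs (12.69 ± 1.06). Its only ESC counts were in ESC library 4, so the size of this fold rests on that library (16.39 without it). Foxf1, of splanchnic mesoderm, had 18.8, 45.4, 133 and 122 CPM in LSD1 CI EBs and 2 counts in all in LSD1 CI ESCs, a ratio of 5160 (95% counting interval 1430 to 42600). The interval takes the 2 counts as independent, and it would be wider if they were mates of a single fragment.

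Cardiac transcription factors rose, and contractile genes were mixed. Of 13 listed factors, 10 were called up, with a median of 5.04, whereas 8 of 15 tested sarcomere and calcium handling genes were called up and Tnni3 and Ttn were called down. The call for the titin gene Ttn was lost when any 1 library other than EB library 4 was left out (-2.85 to -2.42), and its fold change was -4.18 without EB library 4. Gata4, a zinc finger factor of heart and endoderm, had 115, 137, 122 and 155 CPM in LSD1 CI EBs, against 3.59 to 4.72 CPM in LSD1 CI ESCs (5.02 ± 0.14, adjusted p = 1.44e-08). Tbx20 had 90.9, 154, 196 and 304 CPM in LSD1 CI EBs, against 0.717 to 1.99 CPM in LSD1 CI ESCs (7.30 ± 0.48). Nkx2-5, a defining factor of the heart field, stayed low, at 6.95, 8.29, 2.35 and 4.52 CPM in LSD1 CI EBs, against 0.261 to 0.836 CPM in LSD1 CI ESCs (3.61 ± 0.51). Tnnt2, the cardiac troponin T gene, had 3.1, 5.23, 3.24 and 28.4 CPM in LSD1 CI EBs and 3 counts in all in LSD1 CI ESCs, with EB library 4 far above the rest. The atrial light chain gene Myl7 was not called (0.36 ± 0.36). Actc1, another cardiomyocyte marker, had a fold change of 10.39 in LSD1 CI cells in a fit that also held the WT libraries. Pln and Nppa, genes of contracting cardiomyocytes, were too low to be tested: Pln had at most 0.0543 CPM in LSD1 CI EBs, and Nppa had no count.

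Endothelial genes were mostly up. Of 13 tested, 9 were called up. Pecam1 and Eng, which naive ESCs also express, were called down. Cdh5 (VE-cadherin), the junctional cadherin of endothelium, had 5.68, 6.75, 15.0 and 65.7 CPM in LSD1 CI EBs and no count in LSD1 CI ESCs, at least 1000-fold higher. Flt1, a VEGF receptor found also outside endothelium, was even, at 102 to 117 CPM in LSD1 CI EBs, against 1.19 to 3.13 CPM in LSD1 CI ESCs (5.64 ± 0.31). Of 8 tested blood genes, 6 were called up, among them Tal1, with 5.79, 11.2, 36.1 and 28.5 CPM in LSD1 CI EBs against 0.787 to 1.57 CPM in LSD1 CI ESCs (3.94 ± 0.58). Embryonic globin Hbb-bh1 was at 0, 0, 0.432 and 1.34 CPM in LSD1 CI EBs and was not tested.

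Endoderm genes rose: 11 of 12 definitive and gut endoderm genes were called up, with a median of 6.75, and the remaining gene, Epcam, was called down. Foxa2, a pioneer factor of endoderm and axial mesoderm, had 44.4, 40.2, 25.8 and 24.8 CPM in LSD1 CI EBs, against 0 to 0.281 CPM in LSD1 CI ESCs (7.94 ± 0.48, or 8.62 without ESC library 4). Sox17, a determinant of endoderm, had 63.6, 65.3, 39.2 and 32.1 CPM in LSD1 CI EBs, against 0.65 to 1.14 CPM in LSD1 CI ESCs (5.81 ± 0.30). Of 14 tested genes of visceral endoderm transport and secretion, 10 were called up, and Apoa2 and Trf were called down. Ttr (transthyretin) had 6.84, 13.7, 7.97 and 58.8 CPM in LSD1 CI EBs and no count in LSD1 CI ESCs, at least 947-fold higher, again with EB library 4 highest. Afp, the α-fetoprotein of visceral endoderm, was called up (adjusted p = 0.00074) but was low. It had 0.869, 0.886, 1.61 and 4.34 CPM in LSD1 CI EBs, against no count in LSD1 CI ESCs.

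The neural progenitor list was raised in part, while the neuronal list had more genes down than up and a median of -0.82. Of 15 tested neural progenitor genes, 7 were called up and 3 were called down (En2, Olig2 and Neurod1), and of 12 tested neuronal genes, Gap43 was called up and 5 were called down. The call for Olig2 was lost without any of the 4 ESC libraries or EB libraries 2 or 3 (-2.68 to -2.56), and that for Neurod1 without ESC libraries 2 or 4 or EB libraries 2 or 3 (-2.39 to -2.06). Sox1, the earliest neural plate marker, had 65.2, 29.2, 7.60 and 2.75 CPM in LSD1 CI EBs, against 5.68 to 8.57 CPM in LSD1 CI ESCs. It was above every ESC library in EB libraries 1 and 2 and below every ESC library in EB library 4, and it was not called (1.93 ± 0.77, adjusted p = 0.0471) unless EB library 4 was left out (2.31). Zic1, a zinc finger gene of dorsal neural tissue, had 33.7, 13.9, 1.79 and 0.306 CPM in LSD1 CI EBs, against 0 to 0.118 CPM in LSD1 CI ESCs (7.60 ± 1.58, or 6.41 without EB library 1). Pax6, of neural and eye progenitors, was not called by edgeR (2.68 ± 0.84, adjusted p = 0.017), but it was called without EB library 3 (3.05) or EB library 4 (3.0), and by DESeq2 with all libraries (2.68, adjusted p = 0.000478). Tubb3, the neuronal β-tubulin gene, was already at 44.8 to 68.3 CPM in LSD1 CI ESCs and was at 16.8, 11.2, 10.7 and 6.78 CPM in LSD1 CI EBs (-2.31 ± 0.26).

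Positional identity appeared through the Hox genes, the homeobox clusters that are switched on in order along the body axis. Of 24 listed, 20 were called up, with a median of 4.5. Hoxb1 had 2.17, 3.57, 9.70 and 23.0 CPM in LSD1 CI EBs and no count in LSD1 CI ESCs, at least 413-fold higher. Hoxd4 had 2.47, 5.57, 21.8 and 14 CPM in LSD1 CI EBs, against 0.0562 to 0.457 CPM in LSD1 CI ESCs (5.48 ± 0.80). EB libraries 3 and 4 were above EB libraries 1 and 2 for both genes.

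The lists ranked the 4 LSD1 CI EB libraries differently. Summed over members, the paraxial and lateral mesoderm list was at 231, 387, 732 and 1080 CPM in EB libraries 1 to 4, and the cardiac factor list was at 431, 666, 892 and 1470 CPM. The Hox list was at 38.8, 75.4, 233 and 225 CPM. The neural progenitor list was at 343, 201, 107 and 121 CPM, higher in the libraries where the mesoderm sums were lower. The formative list was at 1320, 1170, 912 and 826 CPM. The same lists also varied between WT EB libraries: in 7 WT EBs the lateral mesoderm sum was 175 to 795 CPM, the cardiac factor sum was 279 to 1210 CPM, the neural progenitor sum was 110 to 445 CPM and the formative sum was 881 to 1470 CPM. The Hox sum was 11 to 124 CPM in WT EBs, below LSD1 CI EB libraries 3 and 4. In LSD1 CI EB library 4, the mesoderm and cardiac sums were above and the formative sum was below the WT range. Rn45s, at 9.49% in EB library 1 and 16.6% in EB library 4, moved with this order. Its part in it was not tested.

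**Figure D2:**
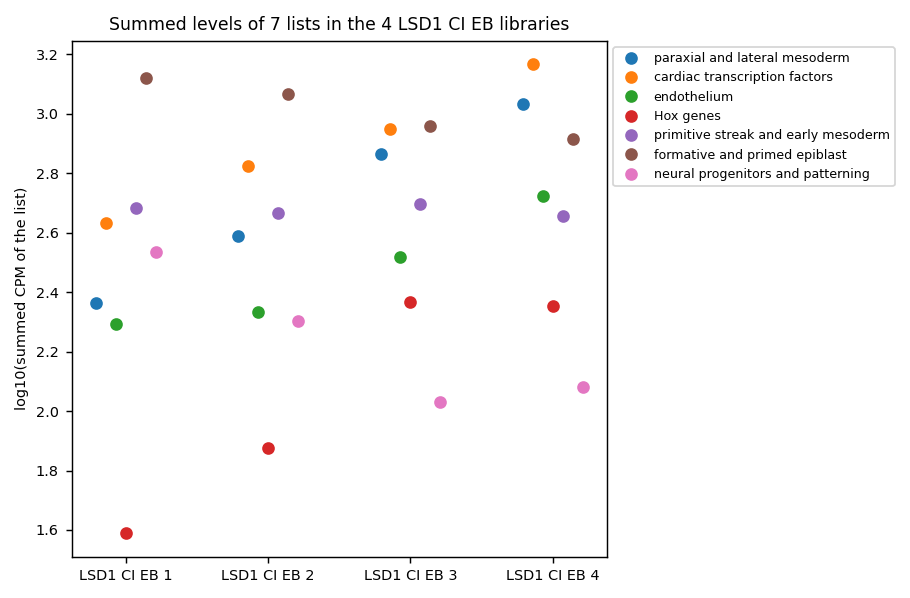
Summed levels of 7 gene lists, as log10 of the summed CPM, in each of the 4 LSD1 CI EB libraries. Each point is the sum over the list's members in a library. The mesoderm, cardiac, endothelium and Hox sums are lowest in libraries 1 and 2, the neural progenitor and formative sums are highest there, and the streak sum is nearly level.

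Signalling genes changed by pathway in different ways. Of 16 tested BMP pathway genes, 13 were called up, with a median of 4.07. The target genes Id1, Id2 and Id3, inhibitors of basic helix-loop-helix factors, rose together: Id1 had 115, 112, 77.5 and 89.2 CPM in LSD1 CI EBs, against 0.9 to 3.37 CPM in LSD1 CI ESCs (5.67 ± 0.38), Id2 had 5.77 ± 0.42 and Id3 had 5.80 ± 0.50. The ligand gene Bmp4 had 21.1, 35.6, 68.6 and 84.2 CPM in LSD1 CI EBs, against 6.30, 2.69, 6.86 and 1.57 CPM in LSD1 CI ESCs (3.60 ± 0.57). The Nodal pathway was split, with 4 of 11 genes called up and 5 called down, among them the coreceptor gene Tdgf1, at 43.1, 40, 27.8 and 5.41 CPM in LSD1 CI EBs against 530 to 590 CPM in LSD1 CI ESCs (-4.26 ± 0.52). Of 20 Wnt genes, 10 were called up and Notum, a secreted Wnt inhibitor, was called down. Of 17 FGF and ERK feedback genes, 10 were called up. The immediate early target Egr1 had 56.8 to 92.2 CPM in LSD1 CI EBs, against 0.169 to 0.784 CPM in LSD1 CI ESCs (7.65 ± 0.35). ESCs had been kept with a MEK inhibitor and EBs had not, so the medium and the cell state cannot be told apart here.

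**Figure D3:**
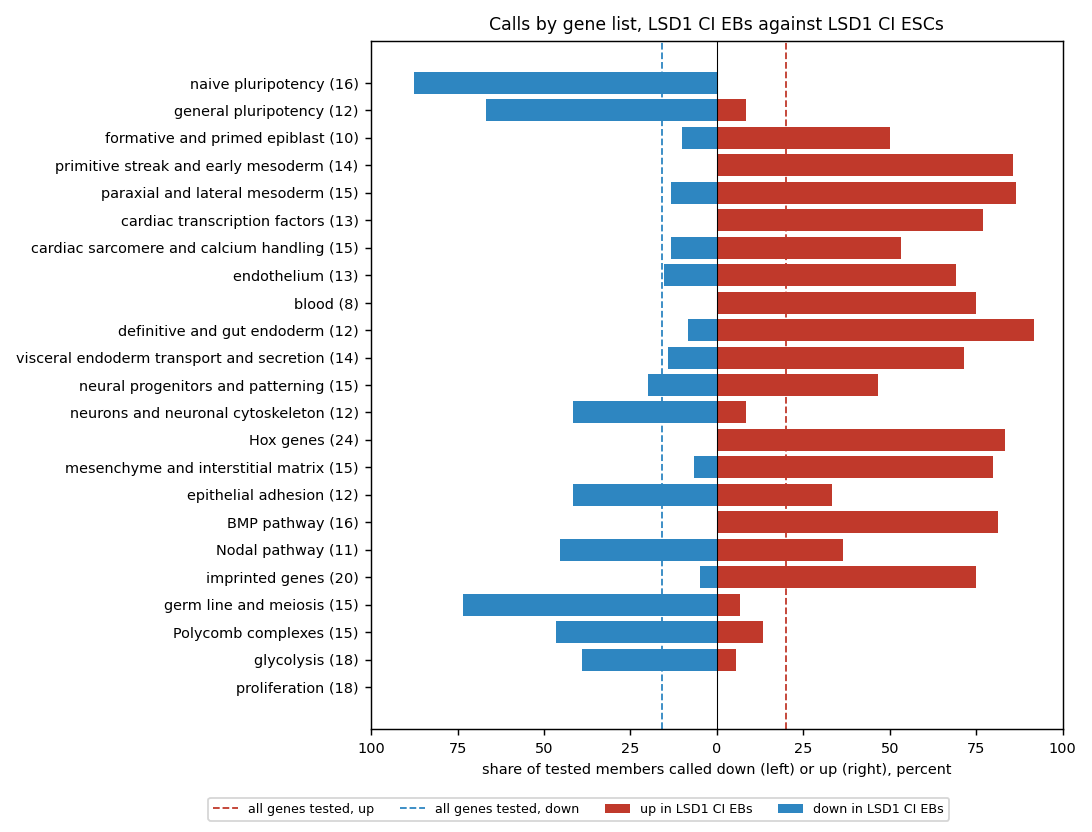
Share of tested members called up (right) or down (left), in percent, in LSD1 CI EBs against LSD1 CI ESCs, for 23 gene lists, with the number tested in brackets. Bars start at 0 and the dashed lines mark the shares over all genes tested, 20% up and 15.8% down. Endoderm, mesoderm, Hox and BMP lists reach farthest to the right, naive pluripotency and germ line lists farthest to the left, and the proliferation list has no call.

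Chromatin genes moved in part. Of 15 Polycomb genes, 7 were called down and 2 were called up, with Suz12, a PRC2 core subunit, at 153, 148, 149 and 131 CPM in LSD1 CI EBs against 469 to 491 CPM in LSD1 CI ESCs (-1.72 ± 0.07). The DNA dioxygenase genes diverged. Tet1, high in ESCs, had 174 to 191 CPM in LSD1 CI EBs, against 1160 to 1260 CPM in LSD1 CI ESCs (-2.75 ± 0.07), while Tet3 had 220, 233, 287 and 276 CPM in LSD1 CI EBs, against 60, 34.3, 52.3 and 32.2 CPM in LSD1 CI ESCs (2.51 ± 0.21). The response of Tet3 was lower in LSD1 CI than in WT cells (-1.34 ± 0.28, adjusted p = 0.00629), a call lost without EB libraries 1, 2 or 3 or ESC libraries 1 or 3 (-1.41 to -1.17). Among 12 H3K4 methyltransferase and demethylase genes, Setd1b alone was called (1.43 ± 0.19). Of 18 proliferation genes, edgeR called none in either direction and DESeq2 called none, although 16 had an unadjusted p below 0.05. All 18 changes were under the size required for a call, with a median of -0.58. Mki67, a marker of cycling cells and the member with the largest positive change, had 871 to 932 CPM in LSD1 CI EBs and 454 to 518 CPM in LSD1 CI ESCs (0.91 ± 0.07).

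Germ line genes, which ESCs in 2i transcribe at low levels, were mostly lower in EBs. Of 15 tested, 11 were called down, with a median of -3.88. Summed over the list, LSD1 CI ESCs were at 225, 292, 208 and 254 CPM, above the 54.3 to 103 CPM of WT ESCs. By edgeR no member was called different in response between the genotypes, and 6 of 15 had an unadjusted p below 0.05, against 20.7% of all genes tested. Dazl, an RNA-binding protein of germ cells, had 0.435, 0.171, 0.0618 and 0.0611 CPM in LSD1 CI EBs, against 31.3, 51.7, 29.9 and 48.6 CPM in LSD1 CI ESCs (-7.72 ± 0.45, or -8.60 without EB library 1). The same 2 ESC libraries, 2 and 4, had more Dazl than 1 and 3. Stra8, a meiotic entry gene, had no count in LSD1 CI EBs and 2.19 to 4.00 CPM in LSD1 CI ESCs, at least 125-fold lower.

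Imprinted genes, which are transcribed from a single parental copy and many of which act in fetal growth, rose as a group. Of 20 listed, 15 were called up, with a median of 3.81, and Grb10 was called down. H19 had 897, 1220, 1780 and 2950 CPM in LSD1 CI EBs, against 0.266 to 0.597 CPM in LSD1 CI ESCs (11.77 ± 0.54), and its neighbour Igf2, a growth factor, had 474, 651, 942 and 1670 CPM in LSD1 CI EBs, against 0.196 to 0.9 CPM in LSD1 CI ESCs (10.80 ± 0.59). Mest had 2190, 1550, 1590 and 1220 CPM in LSD1 CI EBs, against 172, 69.6, 173 and 68.0 CPM in LSD1 CI ESCs (3.76 ± 0.37). Peg10, a retrotransposon-derived placental gene, had 3470, 4730, 7790 and 5290 CPM in LSD1 CI EBs, against 110, 31.8, 148 and 36.0 CPM in LSD1 CI ESCs (6.03 ± 0.59). For Mest and Peg10, ESC libraries 1 and 3 were above ESC libraries 2 and 4, the same pairs as over all genes.

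The largest changes among genes with at least 5 CPM in a group combined absence with abundance. Car4, a membrane-bound carbonic anhydrase, had 231, 254, 183 and 288 CPM in LSD1 CI EBs and no count in LSD1 CI ESCs, at least 10700-fold higher. Aplnr, the apelin receptor of migrating mesoderm, had 34.0, 50.5, 108 and 131 CPM in LSD1 CI EBs and no count in LSD1 CI ESCs, at least 3510-fold higher. Nrp1, a VEGF and semaphorin coreceptor, had 244, 376, 364 and 796 CPM in LSD1 CI EBs, against 0 to 0.0653 CPM in LSD1 CI ESCs (13.16 ± 0.63). In the other direction, Khdc3, an oocyte and ESC gene of the subcortical maternal complex, had 0 to 0.0572 CPM in LSD1 CI EBs, against 84.0 to 99.3 CPM in LSD1 CI ESCs (-11.47 ± 0.28). Spic, an ETS factor gene, had no count in LSD1 CI EBs, against 4.31, 16.8, 4.70 and 20.3 CPM in LSD1 CI ESCs, at least 538-fold lower.

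Most of this response was shared with WT cells. The WT comparison, a contrast of a fit over both genotypes, called 3629 of 16894 genes up (21.5%) and 2534 down (15%). Its fold changes set WT EBs against WT ESCs, but the LSD1 CI libraries entered its gene filter, scaling and estimate of spread. The calls of the genotypes are thus not fully independent. Over the 15022 genes tested in both, 2574 were called up in both, 85.9% of the LSD1 CI calls and 81.6% of the 3155 WT calls, and 1848 were called down in both, 77.9% of the LSD1 CI calls and 80% of the 2310 WT calls. Genes called in opposite directions numbered 4 among LSD1 CI genes up and 9 among LSD1 CI genes down. Across genes, which are not independent replicates, the fold changes had a Pearson r of 0.921. A called gene in one genotype and not in the other is not thereby shown to differ, so the difference between the responses was tested directly.

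The response differed by the same thresholds for 221 genes: it was higher in LSD1 CI for 67 (0.397% of 16894 tested) and lower in LSD1 CI for 154 (0.912%). Among the 154, LSD1 CI cells fell in 103 cases, while WT cells rose in 57 and were not called in 56. All LSD1 CI EB libraries were below all WT EB libraries for 98 of them, and all LSD1 CI ESC libraries were above all WT ESC libraries for 50. Among the 67, all LSD1 CI EB libraries were above all WT EB libraries for 37, and all LSD1 CI ESC libraries were below all WT ESC libraries for 25. The genes were chosen by the same values, so the separation describes them and is not further support. Its share over all genes tested was not computed. The numbers of genes called higher and lower moved with single libraries and with the tool. Without LSD1 CI EB library 2 they were 42 and 100, without EB library 3 they were 40 and 96, without LSD1 CI ESC library 2 they were 40 and 100, without ESC library 1 they were 43 and 117, and without ESC library 4 they were 43 and 115. DESeq2 called more, 170 higher and 341 lower. With only WT EB 4 and 5 and WT ESC 4 and 5 as reference they were 24 and 25, and of the genes described below Cdh1, Cldn4, Grhl2, Ildr1, Rab25 and Grb10 were then called. This reference is smaller, and it is nearer to the LSD1 CI libraries in the share of even counts given under processing. What lowered the counts was not tested.

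**Figure D4:**
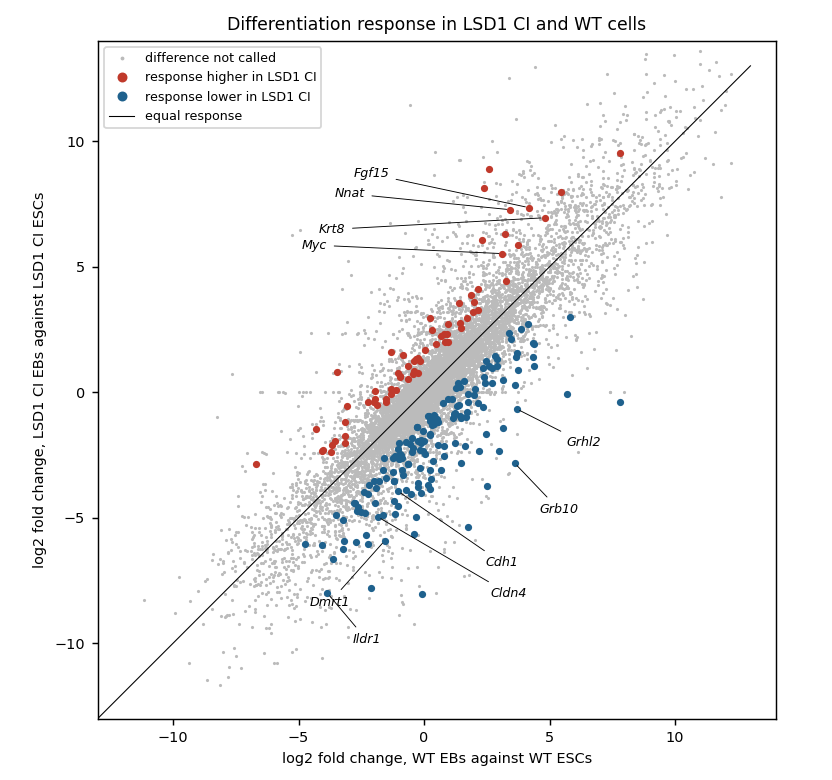
Log2 fold change of EBs against ESCs in LSD1 CI cells (vertical) and in WT cells (horizontal), one point per gene, for 16890 of the 16894 genes tested (4 lie outside the axes). Red points mark the 67 genes whose response was higher in LSD1 CI, blue points the 154 whose response was lower, and the line marks an equal response. Most genes lie along the line, and Grb10, Grhl2, Cdh1 and Cldn4 lie well below it.

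Members of the lineage lists were seldom called different, as were genes in general. Of the 16 naive genes and of the lateral mesoderm, cardiac, Hox and BMP lists, edgeR and DESeq2 called no member different. At an unadjusted p below 0.05 edgeR had 2 of 16 naive genes, 3 of 15 lateral mesoderm genes, 3 of 13 cardiac factors, 4 of 24 Hox genes and 3 of 17 BMP genes, against 20.7% of all genes tested. Lists of this size hold few calls at the shares over all genes, so these counts do not show that the lists responded alike in the genotypes. Other lineage lists held single calls: Cubn, an endocytic receptor gene of visceral endoderm, was higher (3.08 ± 0.58), as was Tubb3 among neuronal genes (1.72 ± 0.33, a call lost without ESC libraries 1 or 3 or EB library 1, at 1.48 to 1.63), while Nefl, the neurofilament light chain gene, was lower (-1.89 ± 0.29). Epcam, in the gut endoderm list, Krt8, in the trophoblast list, and Lin28a are described below. At an unadjusted p below 0.05 these lists had 6 of 11 trophoblast genes, 4 of 14 neuronal genes and 3 of 12 gut endoderm genes. The visceral endoderm list had 2 of 15 and the general pluripotency list 2 of 12. Esrrb (-0.22 ± 0.65, adjusted p = 0.899) and Hand2 (-0.30 ± 1.16, adjusted p = 0.927) were not called, and their signs changed without EB library 4 for Esrrb (0.18) and without ESC library 4 for Hand2 (0.79). Esrrb reached a median of 3.68 CPM (0.254 to 7.47) in 7 WT EBs and Hand2 a median of 71.3 CPM (18.1 to 119), both ranges overlapping those of LSD1 CI EBs.

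The epithelial adhesion list had more members called different than any other list. Of 12 listed epithelial adhesion genes, 6 had a lower response in LSD1 CI and Krt8 a higher one, against 0.912% and 0.397% of all genes. The list was drawn up with earlier results of these data known, so its count and rank are descriptions and not independent support. Cdh1 (E-cadherin, chromosome 8, 109127250 to 109194147), the adhesion molecule of ESCs and epithelia, had 58.7, 47.6, 53.6 and 63.8 CPM in LSD1 CI EBs, against 827, 925, 809 and 861 CPM in LSD1 CI ESCs (-3.93 ± 0.11, adjusted p = 1.44e-08). In WT EBs it had a median of 437 CPM (359 to 567), against 922 CPM (802 to 1010) in WT ESCs, so every LSD1 CI EB library was below every WT EB library. The difference in response was -2.89 ± 0.15 (adjusted p = 1.75e-11). Cldn4, a tight junction claudin, had 3.1, 1.37, 2.84 and 2.72 CPM in LSD1 CI EBs, against 67.8 to 88.9 CPM in LSD1 CI ESCs, and a median of 24.9 CPM (19.5 to 29.7) in WT EBs (difference -3.12 ± 0.30, adjusted p = 8.92e-07). Epcam, an epithelial adhesion molecule, had 23.6, 21.8, 22 and 15.9 CPM in LSD1 CI EBs, against 44.1 to 50.1 CPM in LSD1 CI ESCs, and a median of 85.1 CPM (66.7 to 106) in WT EBs (difference -1.73 ± 0.20). Cldn3, Cldn7 and Ocln, which also encode tight junction proteins, were called as well, with differences of -3.90 ± 0.62, -2.37 ± 0.35 and -2.65 ± 0.40.

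Further genes known from epithelia were among those with the most negative differences, by which they were chosen, and so do not bear on the list. Grhl2, a grainyhead factor that activates epithelial junction genes, had 2.47, 2.57, 1.48 and 1.96 CPM in LSD1 CI EBs, against 1.99, 5.23, 2.84 and 3.32 CPM in LSD1 CI ESCs (-0.66 ± 0.33, not called). In WT cells it rose, with a median of 26.3 CPM (20.7 to 32.8) in WT EBs against 2.19 CPM (1.21 to 2.47) in WT ESCs, and the difference was -4.34 ± 0.31 (adjusted p = 6.76e-09). Ildr1, which encodes a protein of tricellular junctions, had 0.122 to 0.543 CPM in LSD1 CI EBs, against 77.3 to 80.7 CPM in LSD1 CI ESCs, and 3.59 to 7.11 CPM in WT EBs (difference -4.15 ± 0.36). Pkp3 (plakophilin, a desmosome protein), Rab25 (an epithelial trafficking GTPase) and Ap1m2 (the epithelial AP-1 adaptor subunit) had differences of -5.22 ± 0.54, -3.77 ± 0.54 and -3.84 ± 0.46, and each was at most 0.543 CPM in any LSD1 CI EB library. The difference was -5.83 for Pkp3 without EB library 3 and -4.75 for Ap1m2 without EB library 1.

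Other epithelial genes did not follow. Krt8 and Krt18, the simple epithelial keratins, rose: Krt8 had 438, 487, 528 and 621 CPM in LSD1 CI EBs, against 2.59 to 5.75 CPM in LSD1 CI ESCs (6.95 ± 0.26), and 336 to 552 CPM in WT EBs. Its response was higher in LSD1 CI by 2.14 ± 0.38, with LSD1 CI ESC levels below the 6.47 to 26.5 CPM of WT ESCs. Cldn6, an early embryonic claudin, rose in LSD1 CI cells by 3.46 and was not called different. Among genes of mesenchymal cells, Cdh2 (N-cadherin) had 252, 232, 233 and 215 CPM in LSD1 CI EBs, against 5.38 to 7.20 CPM in LSD1 CI ESCs (5.12 ± 0.11), with a difference of 0.09 ± 0.45. Snai1, a repressor of Cdh1, had 16.5, 20.4, 44.4 and 56.4 CPM in LSD1 CI EBs, against 0.414 to 0.703 CPM in LSD1 CI ESCs (5.90 ± 0.48), and a median of 12.7 CPM (6.77 to 19.6) in WT EBs. Its difference of 1.79 ± 0.64 was not called (adjusted p = 0.106). Snai2 and Twist1, which encode related regulators, had differences of -1.03 ± 0.81 and -0.61 ± 0.44.

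In the other LSD1 CI cultures Cdh1, Grhl2 and Cldn4 were above their LSD1 CI EB levels, a description without a test since these cultures had other media and 2 libraries each. WT libraries of these cultures were not examined, so whether LSD1 CI levels there differ from WT was not tested. Cdh1 was at 1170 and 1390 CPM in serum cultures and at 1220 and 1290 CPM in EpiLCs. Grhl2 was at 62.7 and 56.0 CPM in serum cultures and at 114 and 104 CPM in EpiLCs. Cldn4 was at 139 and 211 CPM in serum cultures and at 78.2 and 84.2 CPM in EpiLCs.

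**Figure D5:**
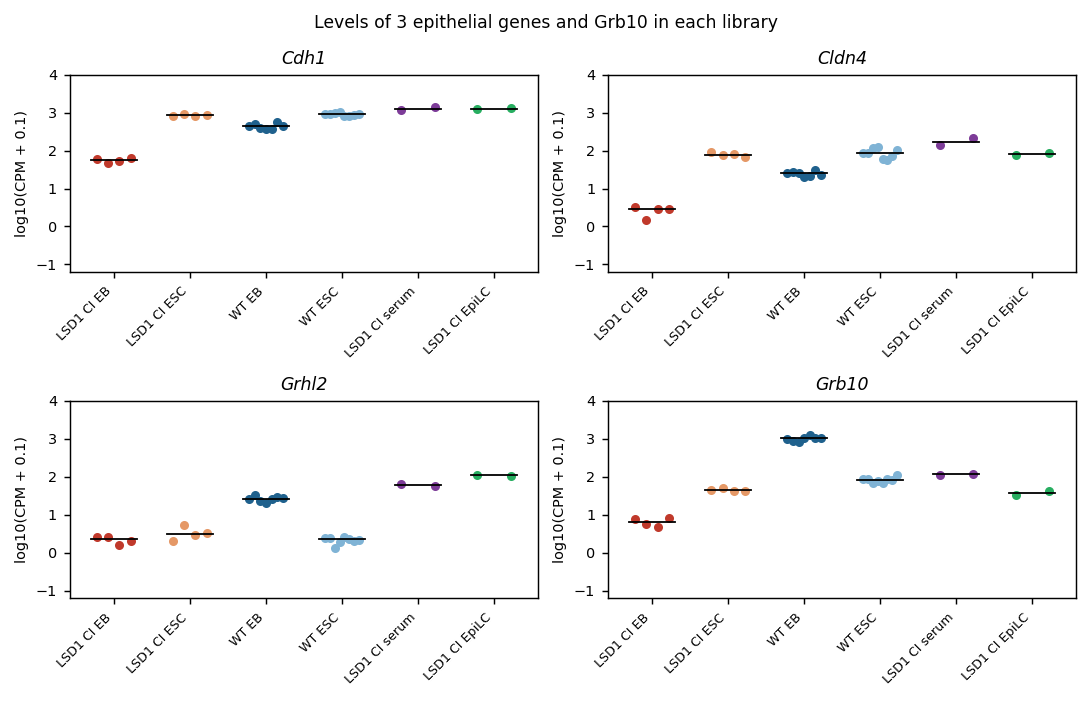
Levels of Cdh1, Cldn4, Grhl2 and Grb10, as log10(CPM + 0.1), in LSD1 CI EBs (4), LSD1 CI ESCs (4), WT EBs (7), WT ESCs (8), LSD1 CI serum cultures (2) and LSD1 CI EpiLCs (2). Each point is a library and each line a group median. For all 4 genes the LSD1 CI EB libraries lie below the WT EB libraries without overlap.

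Promoters of Cldn4, Epcam, Ap1m2 and Rab25 are shown as examples with an E-box close to the start, chosen after their sequences and values were seen. Each line gives the 250 bases before the start of the gene in RefSeq (GRCm38.p6), 5′ to 3′ along the gene, with the E-box CAGGTG in capitals on either strand. Its reverse complement reads CACCTG.
Cldn4 promoter, chr5:134946935-134947184, minus strand: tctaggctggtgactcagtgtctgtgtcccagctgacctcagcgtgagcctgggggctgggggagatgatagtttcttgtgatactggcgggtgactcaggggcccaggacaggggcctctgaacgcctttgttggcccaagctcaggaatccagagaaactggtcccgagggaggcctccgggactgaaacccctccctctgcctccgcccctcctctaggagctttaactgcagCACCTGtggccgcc
Epcam promoter, chr17:87635729-87635978, plus strand: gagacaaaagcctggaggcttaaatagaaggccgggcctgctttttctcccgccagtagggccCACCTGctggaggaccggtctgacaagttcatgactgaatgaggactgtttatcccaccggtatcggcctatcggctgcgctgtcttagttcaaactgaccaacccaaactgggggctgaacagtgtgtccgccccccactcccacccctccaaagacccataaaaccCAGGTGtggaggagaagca
Ap1m2 promoter, chr9:21312334-21312583, minus strand: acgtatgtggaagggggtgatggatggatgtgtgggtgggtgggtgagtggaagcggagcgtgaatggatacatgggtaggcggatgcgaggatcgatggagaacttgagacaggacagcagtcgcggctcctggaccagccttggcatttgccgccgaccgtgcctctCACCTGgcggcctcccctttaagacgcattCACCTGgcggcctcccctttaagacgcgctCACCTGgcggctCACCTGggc
Rab25 promoter, chr3:88548280-88548529, minus strand: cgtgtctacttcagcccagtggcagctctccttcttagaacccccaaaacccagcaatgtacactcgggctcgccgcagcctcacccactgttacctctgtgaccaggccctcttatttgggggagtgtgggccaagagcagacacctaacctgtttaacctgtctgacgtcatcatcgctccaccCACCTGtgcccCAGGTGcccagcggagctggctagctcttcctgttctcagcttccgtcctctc
The motif occurs 1 time in the Cldn4 window, 2 times in the Epcam window, 4 times in the Ap1m2 window and 2 times in the Rab25 window. Counted on both strands, it was in the windows of 44 of the 111 genes with a lower response in LSD1 CI that matched a promoter (39.6%), in 4 of 46 with a higher response (8.7%), in 19.5% of all 12979 tested genes with a promoter, and in 19.4% of the 27025 promoters in the table. The grainyhead motif AACCNGTT was in 3 of the 111 (2.7%), in 3 of 46 with a higher response (6.52%) and in 1.98% of tested genes, and its form AACCGGTT, in 0.216% of tested genes, was too rare to compare. These shares were not tested against each other, and the sets were not matched for base composition. A match is a description of the letters in the window, and binding was not measured here.

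Grb10 moved in opposite directions in the genotypes. Grb10 (chromosome 11, 11830502 to 11937423), an imprinted adaptor that restrains insulin and IGF signalling and growth, had 7.44, 5.54, 4.69 and 8.13 CPM in LSD1 CI EBs, against 45.2, 51.9, 41.7 and 43.2 CPM in LSD1 CI ESCs (-2.82 ± 0.18, adjusted p = 7.92e-07). In WT EBs it had a median of 1020 CPM (847 to 1230), against 84.2 CPM (68.0 to 114) in WT ESCs, a fold change of 3.60. The difference in response was -6.42 ± 0.21 (adjusted p = 5.14e-16). Other LSD1 CI cultures held 115 and 117 CPM in serum and 33.6 and 43.0 CPM in EpiLCs. Of the 20 imprinted genes, Grb10 was the one with a lower response, and Nnat, a neuronal proteolipid gene, had a higher one: 134, 113, 66.5 and 91.0 CPM in LSD1 CI EBs, against 0.473 to 1.18 CPM in LSD1 CI ESCs, and 30.8 to 84.6 CPM in WT EBs (difference 3.84 ± 0.67, adjusted p = 0.0013). H19, at 74.3 to 360 CPM in WT EBs and thus below every LSD1 CI EB library, had a difference of 3.03 ± 1.03 that was not called (adjusted p = 0.0897), and Igf2, at 864 to 2320 CPM in WT EBs, overlapped.

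A few further genes had a higher response in LSD1 CI. Fgf15, an FGF ligand of neural and gut tissue, had 38.0, 39.9, 48.2 and 33 CPM in LSD1 CI EBs, against 0.0591 to 0.418 CPM in LSD1 CI ESCs, and 8.21 to 22.3 CPM in WT EBs (difference 3.18 ± 0.52). Myc had 35.3, 44.1, 90.6 and 34.3 CPM in LSD1 CI EBs, against 0.675 to 2.01 CPM in LSD1 CI ESCs, and 26.2 to 55.3 CPM in WT EBs (difference 2.40 ± 0.51). The Myc call was lost without ESC libraries 1, 2 or 4 or EB libraries 2 or 3 (differences of 1.96 to 2.46). Its EB levels overlapped between genotypes, and its LSD1 CI ESC levels had a maximum just above the lowest WT ESC library, at 1.73 CPM. Lin28a had a difference of 1.33 ± 0.23, with LSD1 CI ESC levels of 61.6 to 142 CPM below the 159 to 274 CPM of WT ESCs.

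Among the genes with the most negative differences, Dmrt1, a germ line transcription factor gene, had 0.0611 to 0.489 CPM in LSD1 CI EBs, against 13, 33.1, 9.90 and 21.0 CPM in LSD1 CI ESCs. It had 0.332 to 3.66 CPM in WT EBs, against 3.29 to 10.5 CPM in WT ESCs, so that the ranges of the genotypes overlapped in both EBs and ESCs (difference -4.35 ± 0.72). The X-linked gene 1700013H16Rik had 0.244 to 1.49 CPM in LSD1 CI EBs, against 15.6, 40.6, 21.1 and 38.0 CPM in LSD1 CI ESCs. It had 0.379 to 1.82 CPM in WT EBs, against at most 0.853 CPM in WT ESCs, so that the genotypes overlapped in EBs and not in ESCs (difference -7.12 ± 0.95, or -7.80 without EB library 1).

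The labelled cell states could be read from the markers. All 6 naive ESC markers listed (Esrrb, Klf2, Tfcp2l1, Zfp42, Nr0b1 and Prdm14) were high in LSD1 CI ESCs and called down in EBs, and Hand2, Hand1, Gata4, Gata6, T, Foxa2 and Kdr were called up. Among fibroblast or feeder markers, Col3a1 had no count in LSD1 CI ESCs, Col1a1 had 0.956 to 1.19 CPM and Thy1 had 1.71 to 2.87 CPM. In LSD1 CI EBs Col1a1 rose to 18.3, 31.6, 135 and 116 CPM (6.12 ± 0.71), and 12 of 15 tested mesenchyme and matrix genes were called up. Thy1 was the member called down, at 0.598, 0.857, 1.36 and 0.367 CPM in LSD1 CI EBs (-1.58 ± 0.41, adjusted p = 0.00637), and its call was lost without EB libraries 1 or 2 or ESC libraries 1, 2 or 4 (-1.62 to -1.46).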

How the data were processed

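RNA depleted of ribosomal RNA was sequenced from strand-specific libraries. The authors aligned reads to mm9 (STAR 2.7.9a and Picard 2.25.5 are named in the submitters' notes) and deposited raw counts per gene, made with featureCounts. Of low counts from 2 to 39 in LSD1 CI EBs and ESCs, 79.4 to 83.7% were even, as when each mate is counted on its own, and halved counts were an alternative. The share was 79.4 to 80.3% in LSD1 CI EBs and 82.7 to 83.7% in LSD1 CI ESCs. It ranged more widely in WT EBs (75.1 to 79.8%) and the WT ESCs used (75.7 to 83.3%). WT EB 4 and 5 (79.8%) and WT ESC 4 and 5 (83.0 and 83.3%) lay within the LSD1 CI ranges. Counts were tested with edgeR 4.0.16 (R 4.3.3) by the robust quasi-likelihood F-test with TMM scaling and filterByExpr, and calls needed both a p under 0.01 after Benjamini-Hochberg adjustment and a log2 change larger than 1 in size. The standard error is the fold change over the square root of F. The difference in response is the interaction term of a fit over LSD1 CI and WT EBs and ESCs. WT ESC libraries 1 to 3 had no counts on unplaced contigs, unlike the others, and were left out of it. Where ESCs or EBs had no count, the bound uses a floor of 3 counts over the group, which is fewer than 3 fragments if mates were counted singly. Intervals, at 95%, and floors cover counting error only. Replicates differed by more than sampling noise. Same-numbered ESC and EB libraries did not deviate together (r of -0.0842 to 0.102), so numbers were not used as pairs. On simulated counts the 2-group test recovered 83% of 3-fold and 91% of 6-fold changes over 14007 genes, and the interaction recovered 67% and 85% over 15677 genes, with 0 false calls. In the simulation 100 genes per fold, none with low mean counts, were changed in otherwise equal groups with independent noise. It did not model changes in a large part of the genes, close pairs of libraries or mates counted singly, so its rates need not hold for these data.

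Genes were named by rule: the complex and marker genes, up to 12 called genes per direction and comparison with the largest change and a mean of at least 5 CPM, and of each of 43 gene lists up to 6 members with the smallest adjusted p and up to 3 members not called with the highest CPM. Bmp4, Eng, Eomes, Epcam, Foxf1, Hoxb1, Id3, Mest, Nanog, Neurod1, Nkx2-5, Notum, Nppa, Olig2, Peg10, Pln, Sox2, Stra8, Tbx18, Tcf15, Trf and Ttn fall outside it and were chosen after their values were seen. The comparison, lists and members were chosen with earlier results of these data known. Alternatives were DESeq2 1.42.0, its size factors, no filter, halved counts, removal of Rn45s, a test against a 2-fold change, a replicate block, other WT sets and leaving out each LSD1 CI library. Promoters are from RefSeq (GRCm38.p6).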

Additional observations from a re-analysis of the deposited data

Results flagged for a closer look

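In 322 groups of 4 libraries examined (the named genes and the list sums in LSD1 CI EBs and in LSD1 CI ESCs), 13 held a library far from the other 3, and chance alone flags about 1 in 20. In LSD1 CI EBs, library 4 stood apart for Cdh5 (65.7 CPM), Tnnt2 (28.4 CPM), Ttr (58.8 CPM), Ttn (155 CPM), Tfcp2l1 (49.3 CPM), Col3a1 (20.3 CPM) and the summed sarcomere and calcium handling list (683 CPM), in each case as the highest. EB library 3 stood apart for T (33.7 CPM, highest) and Lin28a (655 CPM, lowest). In LSD1 CI ESCs, library 2 stood apart for Cdh2 (5.38 CPM, lowest), library 4 for Cldn3 (6.86 CPM, highest) and the summed lysosome list (1700 CPM, lowest), and library 3 for the summed housekeeping list (17600 CPM, highest).

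The differentiation response differed between LSD1 CI and WT cells, by the interaction test, for 23 of the named genes. It was lower in LSD1 CI for Cdh1 (-2.89), Cldn4 (-3.12), Epcam (-1.73), Cldn3 (-3.90), Cldn7 (-2.37), Ocln (-2.65), Grhl2 (-4.34), Ildr1 (-4.15), Pkp3 (-5.22), Rab25 (-3.77), Ap1m2 (-3.84), Grb10 (-6.42), Dmrt1 (-4.35), Tet3 (-1.34), Nefl (-1.89) and 1700013H16Rik (-7.12). It was higher in LSD1 CI for Krt8 (2.14), Nnat (3.84), Fgf15 (3.18), Myc (2.40), Tubb3 (1.72), Cubn (3.08) and Lin28a (1.33).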

How the results depend on the processing

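In LSD1 CI EBs against LSD1 CI ESCs, the counts of called genes stayed within 1.5 times the 2997 up and 2373 down under every alternative run: leaving out 1 library gave 2909 to 3044 up and 2266 to 2468 down, and a test against a 2-fold change gave 2182 and 1659. The difference in response depended more on the processing. DESeq2 called 170 genes higher and 341 lower in LSD1 CI, and WT ESC 4 and 5 with WT EB 4 and 5 alone gave 24 and 25. Leaving out 1 LSD1 CI library gave 40 to 60 higher and 96 to 143 lower. Differences that were not called changed sign in places: with the small WT set Esrrb had 0.70, Cdh2 -0.50 and Snai1 -0.016, and leaving out 1 library gave -0.93 to 0.18 for Esrrb and -0.92 to 0.79 for Hand2. The cause was not tested. With the replicate number as a block, 2814 genes were up and 2257 down, but same-numbered libraries did not correlate, so they share only a number. Low counts limit what can be said of genes near 0 in ESCs. Folds of genes with no count there are bounds, and fitted folds of genes with few counts, such as Hand1 and Hand2, moved with single libraries.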
